A study of Rattus norvegicus with 12 samples.

Results

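The genes described here encode the proteoglycans of perineuronal nets, the proteins that hold the nets together and the main enzymes that cut them. They were chosen by name from the table of raw RNA-Seq counts, as the lecticans *Acan*, *Bcan*, *Ncan* and *Vcan*, tenascin-R (*Tnr*), the link proteins *Hapln1*, *Hapln2* and *Hapln4*, and the lectican-cleaving enzymes *Adamts4* and *Adamts5*. All 10 were found among the 37209 genes listed, and all 10 passed the filter on low counts that left 20944 genes for testing. Poly-A enriched RNA came from punches of the central nucleus of the amygdala (CeA) of 12 male wild type Sprague Dawley rats aged 14 to 16 weeks, 1 library per rat. The chronic intermittent ethanol (CIE) group of 6 rats inhaled ethanol vapor each day for several weeks and was killed right after the last alcohol exposure. The Control group of 6 rats breathed air only and was killed right after the last air exposure. Rats are numbered by the sample titles, 1 to 6 for CIE and 7 to 12 for Control, so anything that follows this order cannot be told apart from CIE.

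Perineuronal nets are lattices of extracellular matrix that wrap the cell body and proximal dendrites of some neurons, above all fast-spiking parvalbumin interneurons. A backbone of hyaluronan carries lecticans, link proteins clamp each lectican to the hyaluronan, and tenascin-R crosslinks the lecticans at their other end. Related lattices surround the node of Ranvier, where the link protein encoded by *Hapln2* (Bral1), a product of oligodendrocytes, meets versican. ADAMTS proteases cut the lectican core protein and so loosen the lattice.

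In the CeA of CIE rats 1 of these genes passed 5% FDR. *Adamts4*, which encodes an aggrecanase that cuts aggrecan, brevican, neurocan and versican, fell to a 0.446-fold level, with a mean of 20.1 ± 7.06 CPM (counts scaled to the normalized library size of the rat) in CIE rats and 45.0 ± 9.62 CPM in Control rats (SD, n = 6 each). None of the 4 lecticans, *Tnr*, the 3 link proteins or *Adamts5* passed a nominal p of 0.05. Set against the level of myelin transcripts in the same rat, *Adamts4* was lower and *Hapln2* was higher in each of the 6 CIE rats than in any Control rat. That myelin level was itself lower by 0.57 on the log2 scale in CIE rats, which raises any gene set against it. Whether such a separation is particular to *Adamts4* and *Hapln2* was not tested. The share of all genes that separate on this scale was not computed.

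Promoter sequences of the genes that carry these results are shown with the one of *Bcan*, the gene next to *Hapln2*, for contrast. They were taken from RefSeq (build GRCr8, not the build to which the reads were mapped) and run from 250 bases before to 50 bases after the transcription start, 5′ to 3′ along the gene. Such windows were found for 9 of the 10 genes, all but *Adamts5*, and *Vcan* had 2. Capitals mark 3 kinds of word, searched on both strands: ACAAAG, the core that SOX factors bind, CAGCTG, an E-box word that OLIG2 and other bHLH factors can bind, and CTGGTAC or CTGGCAC, words bound by the myelin factor MYRF. The words were chosen after the sequences were seen.
Adamts4 (chr13:86202761-86203060, plus strand): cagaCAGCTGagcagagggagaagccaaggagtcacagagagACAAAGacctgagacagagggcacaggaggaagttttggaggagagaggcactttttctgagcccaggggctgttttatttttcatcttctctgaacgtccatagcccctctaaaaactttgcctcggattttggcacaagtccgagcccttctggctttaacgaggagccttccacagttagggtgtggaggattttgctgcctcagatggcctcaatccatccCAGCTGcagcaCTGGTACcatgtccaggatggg
Hapln2 (chr2:175794389-175794688, minus strand): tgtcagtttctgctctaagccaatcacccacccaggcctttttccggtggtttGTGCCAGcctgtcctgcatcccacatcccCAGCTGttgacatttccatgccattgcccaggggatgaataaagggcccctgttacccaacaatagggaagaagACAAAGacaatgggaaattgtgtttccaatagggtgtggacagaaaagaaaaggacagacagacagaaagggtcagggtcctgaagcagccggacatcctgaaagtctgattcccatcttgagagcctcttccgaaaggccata
Bcan (chr2:175765265-175765564, minus strand): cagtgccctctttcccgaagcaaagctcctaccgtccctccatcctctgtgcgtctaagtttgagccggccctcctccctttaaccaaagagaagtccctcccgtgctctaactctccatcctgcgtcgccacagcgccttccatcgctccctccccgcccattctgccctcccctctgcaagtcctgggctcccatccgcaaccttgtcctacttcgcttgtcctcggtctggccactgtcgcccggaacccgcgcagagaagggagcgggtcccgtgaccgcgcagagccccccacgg
In the *Adamts4* window the SOX word starts 208 bases before the start site, 1 E-box word starts 246 bases before it and another at base 18 after it, and the MYRF word starts at base 29. In the *Hapln2* window the SOX word starts 94 bases before the start site, the E-box word 168 bases before it and the MYRF word, read on the opposite strand, 197 bases before it. The *Bcan* window holds none of these words. Of 33469 RefSeq windows of this length, 18.8% held the SOX word, 15.1% the E-box word and 6.78% a MYRF word. Among the 10 windows of net genes, 4 held the SOX word (also *Ncan* and *Hapln1*), 3 the E-box word (also *Hapln4*) and 4 a MYRF word (also *Acan* and *Hapln4*). All 3 kinds stood together in 69 of the RefSeq windows (0.206%), *Adamts4* and *Hapln2* among them, and since the words were chosen on these sequences this share is no expectation for them. These are matches of letters, and no binding was measured.

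A list of 8 genes of CeA neurons, such as *Prkcd* and *Sst*, was summed in each rat. They summed to between 804 and 2046 CPM in CIE rats and between 963 and 2432 CPM in Control rats, and none was at 0 in all rats. By edgeR 2 were lower and 0 higher at a nominal p under 0.05, *Crh* (−0.45, FDR 0.472) and *Nts* (−0.46, FDR 0.584). The largest parts of the sum were *Penk* (means of 763 CPM in CIE rats and 671 CPM in Control rats) and *Gad2* (427 and 443 CPM). *Prkcd* had only 31.7 and 34.9 CPM. The sum was highest in Control rat 10 (2432 CPM), CIE rat 2 (2046 CPM) and CIE rat 4 (1847 CPM). These rats were also the highest in striatal markers, so the sum cannot tell CeA from neighboring tissue. Markers of neighboring tissue varied more. The 6 striatal projection neuron markers summed to 2627 CPM in CIE rat 2, 1167 CPM in CIE rat 4 and 2963 CPM in Control rat 10, against 159 to 631 CPM in the other 9 rats. The 6 cortical glutamatergic neuron markers summed to between 151 and 402 CPM in CIE rats 1, 2 and 4 and Control rat 10 and to between 8.72 and 57.1 CPM in the other 8 rats, and 1 of them, *Neurod1*, was listed at 0 in all rats. Totals ranged from 39082548 to 95647601 counts per rat. The net genes had between 129 counts (*Adamts5*) and 33217 counts (*Bcan*) in a rat. Counting error, if each count is taken as independent, was then 8.81% and 0.549% of the value. The spread among the libraries of a group was larger than the counting error of the same gene. With 1 library per rat, differences between rats cannot be told apart from differences between punches or library preparations.

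*Bcan* (brevican), the lectican of adult brain made by astrocytes and oligodendrocyte lineage cells, lay between 323 and 400 CPM in CIE rats (median 350 CPM) and between 345 and 414 CPM in Control rats (median 355 CPM). Between groups the log2 fold change was −0.06 (95% interval −0.21 to 0.09, SE 0.07, FDR 0.866), and the interval allows folds of 0.863 to 1.06. It was the steadiest of the 10 genes, with a coefficient of variation of 7.90% in CIE rats and 7.83% in Control rats.

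*Ncan* (neurocan) binds hyaluronan and tenascins in the developing and adult brain. It had between 120 and 161 CPM in CIE rats (median 138 CPM) and between 129 and 175 CPM in Control rats (median 156 CPM), so the groups overlapped. The log2 fold change was −0.12 (interval −0.32 to 0.08, SE 0.09, FDR 0.792). *Vcan* (versican), found in diffuse matrix and at nodes of Ranvier, had between 32.9 and 51.2 CPM in CIE rats (median 39.5 CPM) and between 38.5 and 46.7 CPM in Control rats (median 41.8 CPM). The log2 fold change was −0.07 (interval −0.28 to 0.14, SE 0.10, FDR 0.907), and the CIE rats spread on both sides of the Control range.

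*Acan* (aggrecan), the lectican that defines nets around parvalbumin neurons, had between 3.81 and 10.4 CPM in CIE rats (median 5.94 CPM) and between 4.92 and 8.87 CPM in Control rats (median 5.60 CPM). CIE rat 1 was the lowest and CIE rat 6 the highest of all 12 rats. The log2 fold change was 0.07 (interval −0.39 to 0.53, SE 0.21, FDR 0.956), and it was −0.12 without CIE rat 6. With this spread, folds of 0.765 to 1.45 lie within the interval. *Tnr*, made by oligodendrocytes and some interneurons, had between 62.5 and 110 CPM in CIE rats (median 98.2 CPM) and between 85.2 and 114 CPM in Control rats (median 99.5 CPM). CIE rat 3 stood lowest, and the log2 fold change was −0.08 (interval −0.33 to 0.18, SE 0.12, FDR 0.914) with it and 0.02 without it.

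The makeup of the lectican counts did not differ between the groups by more than the spread between rats. *Bcan* took 65.4 ± 1.79% of the 4 lecticans' counts in CIE rats and 64.7 ± 1.68% in Control rats (SD, n = 6 each, two-sided exact permutation test, p = 0.526). The share of *Ncan* was 26.0 ± 2.05% against 26.8 ± 1.49% (exact permutation p = 0.439). *Vcan* took 7.45 ± 0.953% against 7.42 ± 0.739% (exact permutation p = 0.959), and *Acan* 1.17 ± 0.327% against 1.07 ± 0.261% (exact permutation p = 0.582). These are shares of counts, which depend on transcript length, and not of molecules.

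**Figure D1:**
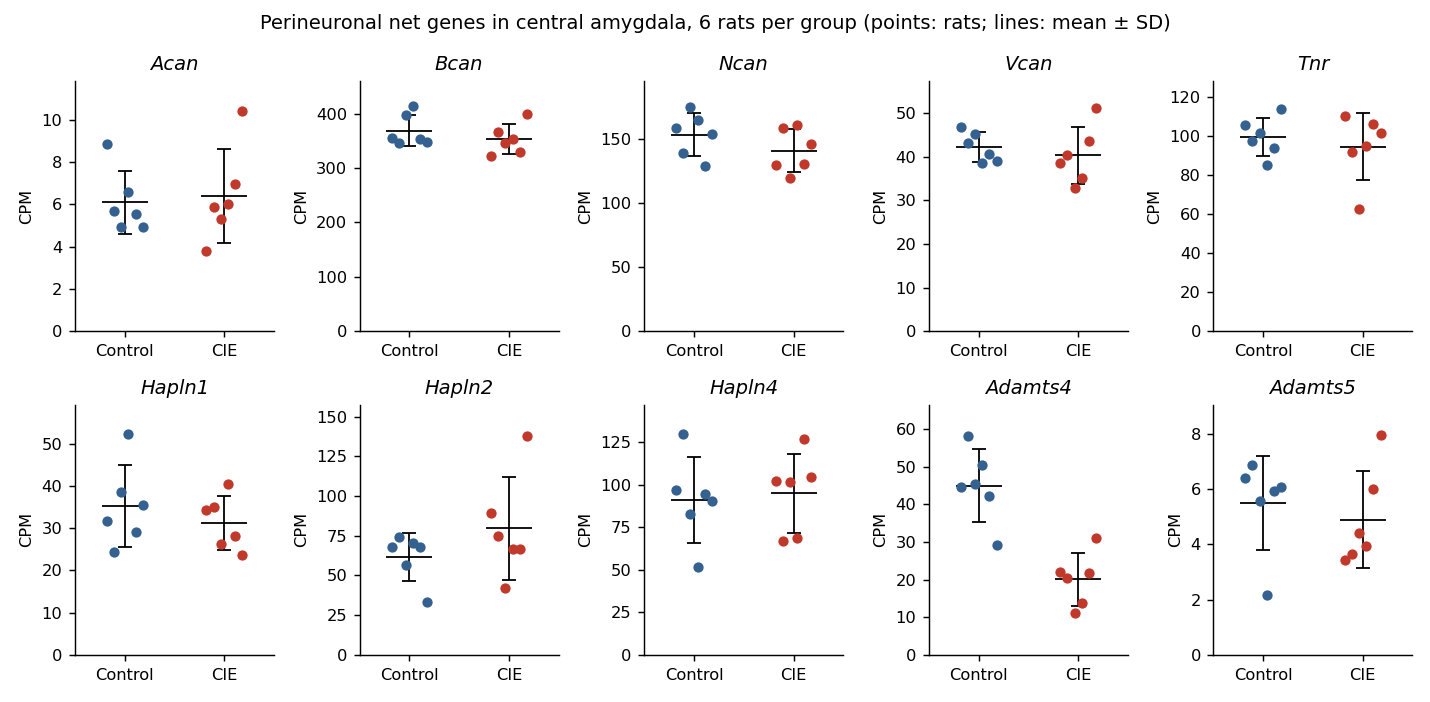
CPM of the 10 net genes (vertical axes from 0) in each of 6 Control and 6 CIE rats (points), with the group mean and SD (lines). The *Adamts4* panel shows 5 of the 6 CIE rats below all Control rats, and the groups overlap in all 10 panels.

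None of the 3 link proteins passed the test between the groups. *Hapln1* (cartilage link protein Crtl1), needed for full nets around neurons, lay between 23.7 and 40.4 CPM in CIE rats (median 31.1 CPM) and between 24.5 and 52.4 CPM in Control rats (median 33.6 CPM). Its log2 fold change was −0.17 (interval −0.54 to 0.20, SE 0.17, FDR 0.848). *Hapln4* (Bral2), which binds brevican at inhibitory synapses and in nets, had between 66.9 and 127 CPM in CIE rats (median 102 CPM) and between 51.8 and 130 CPM in Control rats (median 92.4 CPM), with a log2 fold change of 0.06 (interval −0.36 to 0.48, SE 0.20, FDR 0.958). The sign of the *Hapln4* value turned without CIE rat 5 (−0.038) and without Control rat 10 (−0.049).

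*Hapln2* had between 42.3 and 138 CPM in CIE rats (median 70.8 CPM) and between 33.4 and 74.2 CPM in Control rats (median 68.0 CPM). CIE rats 1, 2 and 6 lay above every Control rat, while CIE rat 3 lay below all Control rats but rat 12. Its log2 fold change was 0.36 (interval −0.16 to 0.89, SE 0.24, FDR 0.755). Without CIE rat 6 it was 0.14 (FDR 0.907), and without CIE rat 3 it was 0.50 (edgeR nominal p 0.0440, FDR 0.362). Of the 3 link proteins' counts *Hapln4* took 46.4 ± 9.78% in CIE rats and 48.1 ± 9.98% in Control rats (exact permutation p = 0.766), *Hapln2* 37.8 ± 9.48% and 32.6 ± 6.47% (exact permutation p = 0.307) and *Hapln1* 15.8 ± 5.02% and 19.3 ± 6.76% (exact permutation p = 0.333), with n = 6 each.

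*Adamts4* had 22.2, 20.4, 11.1, 13.9, 21.7 and 31.2 CPM in CIE rats 1 to 6 and 44.6, 58.1, 45.4, 50.6, 42.2 and 29.1 CPM in Control rats 7 to 12. The groups overlapped through CIE rat 6, which stood above Control rat 12, and the other 5 CIE rats lay below all Control rats. The log2 fold change was −1.16 (interval −1.63 to −0.69, SE 0.22, edgeR FDR 0.0368), a fold between 0.322 and 0.618. In linear CPM the difference had an exact permutation p of 0.00433 (two-sided, n = 6 each), where 0.00216 is the smallest that 6 rats against 6 allow. It ranked 63 of all genes tested by p.

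Against the background, 1 of 10 net genes passed a nominal p of 0.05, where 8.31% of all 20944 genes did, and 1 of 10 passed 5% FDR, where 0.363% did. For genes lower in CIE rats these shares were 4.31% and 0.258%. None of the 10 genes had groups that did not overlap, which was the case for 0.893% of all genes (0.554% with CIE lower). By sign alone 7 of the 10 genes were lower in CIE rats, against 49.7% of all genes, and the median log2 fold change of the 10 was −0.07 against 0.00096 over all genes.

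The *Adamts4* call stood close to the threshold. Its log2 fold change lay between −1.33 and −1.04 when any 1 rat was left out, with a nominal p under 0.05 in all 12 such fits, but it kept 5% FDR in 3 of them, those without CIE rat 3, CIE rat 6 or Control rat 12. The FDR was 0.0787 without CIE rat 1, 0.0904 without CIE rat 2, 0.0939 without CIE rat 4 and 0.0808 without CIE rat 5. It was 0.0763, 0.0976, 0.0957, 0.0693 and 0.0849 without Control rats 7, 8, 9, 10 and 11. DESeq2 gave an FDR of 3.0e-05 for *Adamts4*, with 1.27% of all genes at 5% FDR. With CIE rats 2 and 4 and Control rat 10 left out, the rats high in striatal markers (chosen after seeing the data), its log2 fold change was −1.02 (FDR 0.292), and −1.22 (FDR 0.0675) in a fit with scores of cortical and striatal markers as covariates, where 0.277% of all genes passed 5% FDR. By limma-voom with sample quality weights the FDR was 0.00916, with 1.12% of all genes at 5% FDR.

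*Adamts5*, the other main aggrecanase, had between 3.45 and 7.94 CPM in CIE rats (median 4.17 CPM) and between 2.17 and 6.86 CPM in Control rats (median 5.99 CPM). Its log2 fold change was −0.17 (interval −0.73 to 0.40, SE 0.26, FDR 0.916), and folds of 0.602 to 1.32 lie within the interval. The log2 ratio of *Adamts4* to *Adamts5* was 2.02 ± 0.49 in CIE rats and 3.08 ± 0.76 in Control rats (SD, n = 6 each), lower by 1.07 on the log2 scale in CIE rats (exact permutation p = 0.0108). This ratio was chosen after the values were seen. Control rat 10, the rat lowest in *Adamts5*, had the highest ratio (4.52), and without it the difference was −0.78 (exact permutation p = 0.0195).

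**Figure D2:**
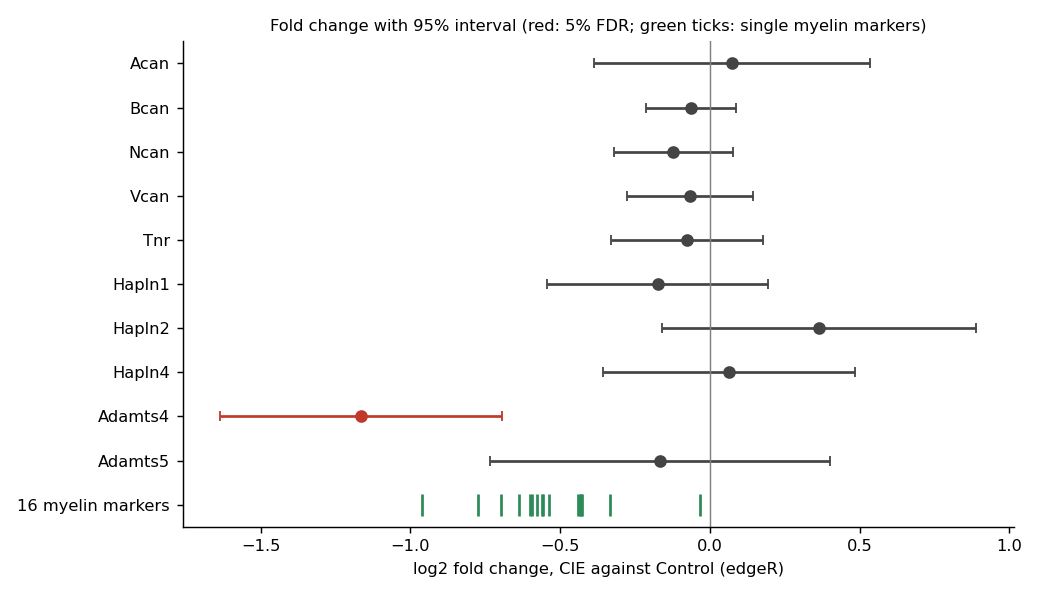
Log2 fold change of each net gene, CIE against Control (horizontal axis, edgeR), with its 95% interval, beside the single values of 16 myelin markers (green ticks). The interval of *Adamts4* lies below 0 and those of the other 9 genes include 0, and the 16 myelin markers lie between −0.96 and −0.03.

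*Adamts4* is known as a gene of mature oligodendrocytes, and *Hapln2* is made by the same cells, so both were set beside 16 markers of myelinating oligodendrocytes. These markers summed to between 6065 and 14710 CPM in CIE rats and between 9307 and 17320 CPM in Control rats, and none was at 0. All 16 had log2 fold changes below 0, from −0.96 (*Ugt8*, a cerebroside synthesis enzyme) to −0.03 (*Myrf*, a transcription factor of myelination), with *Cldn11*, a tight junction protein of myelin, at −0.77 and *Cnp*, an enzyme of oligodendrocytes, at −0.64, 13 with a nominal p under 0.05 and 0 at 5% FDR by edgeR. The value of *Adamts4* (−1.16) was below all 16 and that of *Hapln2* (0.36) above all 16. In bulk tissue fewer cells of a type and less RNA per cell cannot be told apart.

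Both genes followed the myelin markers from rat to rat. After removal of the group means, log2 CPM of *Adamts4* correlated with the mean log2 CPM of the 16 markers with r = 0.977 over 12 rats (permutation p = 4.0e-05, Benjamini-Hochberg adjusted over the 10 genes 0.0004, Spearman rho = 0.958, permutation p = 2.0e-05). The value was r = 0.969 without CIE rats 3 and 6, whose centered marker values lay farthest from the median, and 0.975 within CIE rats and 0.986 within Control rats. *Hapln2* had r = 0.94 (permutation p = 0.00022, adjusted 0.0011, rho = 0.846, permutation p = 0.00137), and r = 0.861 without CIE rats 3 and 6. *Vcan* came next with r = 0.76 (permutation p = 0.013, adjusted 0.0433), but its rho of 0.517 (permutation p = 0.111) did not pass, r was 0.378 without CIE rats 3 and 6, and it was 0.945 within CIE rats and 0.245 within Control rats. The other 7 genes had r between −0.26 and 0.44. The points share their libraries, and levels in 1 library share its tissue makeup.

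Relative to myelin transcripts the groups separated for *Adamts4* and *Hapln2*. *Adamts4* minus the mean of the markers was −3.27 ± 0.15 in CIE rats (−3.50 to −3.10) and −2.63 ± 0.07 in Control rats (−2.71 to −2.55) on the log2 CPM scale (SD, n = 6 each). The difference of −0.64, a fold of 0.640, had an exact permutation p of 0.00216, the smallest possible, and the groups did not overlap. *Hapln2* minus the mean of the markers was −1.30 ± 0.20 in CIE rats (−1.57 to −1.11) and −2.19 ± 0.21 in Control rats (−2.51 to −1.94). The difference of 0.89, a 1.85-fold higher level, also had p = 0.00216 (exact permutation) with no overlap. The marker mean itself was lower by 0.57 on the log2 scale in CIE rats (exact permutation p = 0.0346), and this enters each of these differences. Without reference to the markers *Hapln2* had a log2 fold change of 0.36 (FDR 0.755). The share of all genes that separate on this scale was not computed. *Tnr*, compared in the same way, was −0.98 ± 0.31 against −1.46 ± 0.41, a difference of 0.48 with overlapping groups (exact permutation p = 0.0476, unadjusted for the 3 comparisons). The correlation of *Tnr* with the markers was r = 0.319 (permutation p = 0.384, adjusted 0.579). In the fit with the myelin score as a covariate *Tnr* had a log2 fold change of 0.0097 (FDR 0.988).

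A fit over all 20944 genes with the myelin score as a covariate placed both genes past 5% FDR. *Hapln2* had a log2 fold change of 1.05 (interval 0.77 to 1.32, SE 0.13, FDR 0.00418) and ranked 8 of all genes by p, and *Adamts4* had −0.53 (interval −0.71 to −0.35, SE 0.08, FDR 0.0281) and ranked 21. In that fit 0.186% of all genes passed 5% FDR and 11.3% a nominal p of 0.05. The score is the scaled mean of the same markers and was itself lower in CIE rats, so it is not independent of group. The other 8 net genes had FDR values between 0.597 and 0.988. Without CIE rats 1, 2 and 4 and Control rat 10 the differences from the marker mean were −0.65 for *Adamts4* and 0.81 for *Hapln2* (exact permutation p = 0.0179 for each, the smallest that 3 against 5 rats allow).

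The log2 ratio of *Hapln2* to *Adamts4*, chosen after the values of both genes were seen, was 1.97 ± 0.23 in CIE rats (1.61 to 2.27) and 0.44 ± 0.19 in Control rats (0.20 to 0.69; SD, n = 6 each). The 2 groups were far apart, with a difference of 1.53 (2.89-fold), and it stayed between 1.47 and 1.60 when any 1 rat was left out. The ratio of *Hapln2* to its chromosomal neighbor *Bcan* was higher by 0.38 on the log2 scale in CIE rats (exact permutation p = 0.197), and these groups overlapped.

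**Figure D3:**
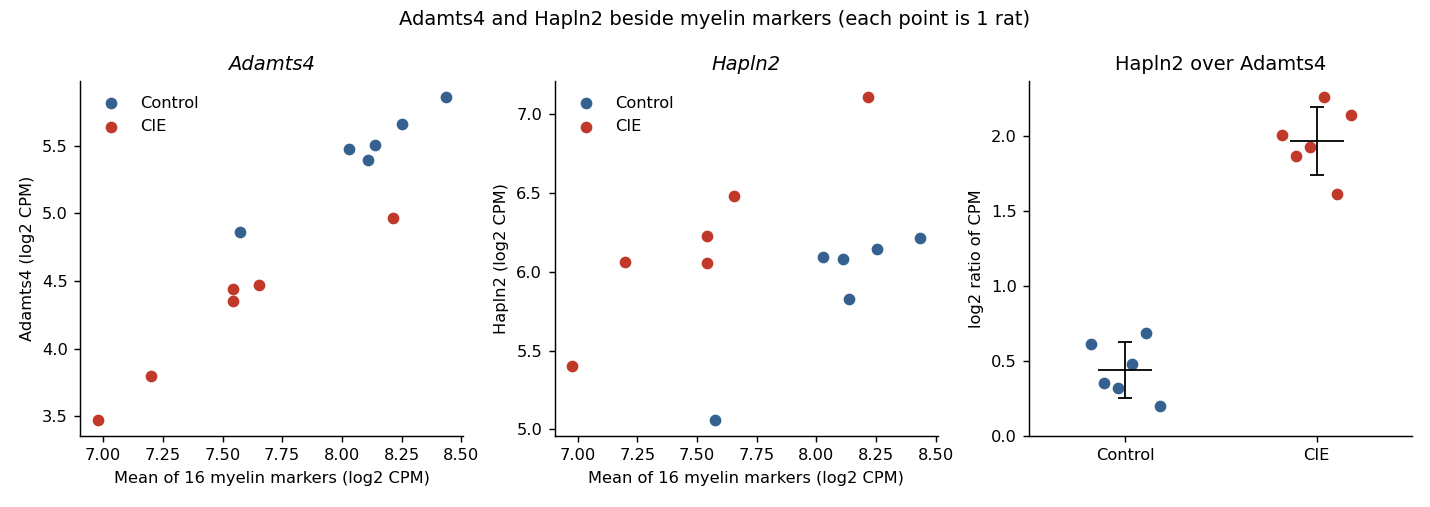
Log2 CPM of *Adamts4* (left) and *Hapln2* (middle) against the mean log2 CPM of 16 myelin markers, each point 1 rat, and the log2 ratio of *Hapln2* to *Adamts4* (right) with the mean and SD of 6 rats. Within each group both genes rise with the markers, CIE rats lie lower for *Adamts4* and higher for *Hapln2* at a given marker level, and the ratio lies between 1.61 and 2.27 in CIE rats and between 0.20 and 0.69 in Control rats.

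Among the 45 pairs of net genes, 3 had a correlation that passed a Benjamini-Hochberg adjusted p of 0.05 after removal of group means (12 rats), and 10 had an unadjusted p under 0.05. *Hapln2* and *Adamts4* rose and fell together, with r = 0.91 (permutation p = 0.00039, adjusted 0.0175, rho = 0.832, permutation p = 0.00307), and r = 0.785 without CIE rat 3 and Control rat 12. *Hapln1* ran opposite to *Hapln4* with r = −0.875 (permutation p = 0.00146, adjusted 0.0219, rho = −0.825, permutation p = 0.00286), and r = −0.725 without Control rats 8 and 10. *Hapln1* also ran opposite to *Adamts5* with r = −0.843 (permutation p = 0.00082, adjusted 0.0185, rho = −0.804, permutation p = 0.00259), and r = −0.735 without Control rats 8 and 10.

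The 3 rats high in markers of striatal projection neurons stood at the end of the *Hapln4* range, and less clearly so for *Hapln1* and *Adamts5*. *Hapln4* was at its 3 lowest values in CIE rat 2 (66.9 CPM), CIE rat 4 (68.6 CPM) and Control rat 10 (51.8 CPM), the 3 rats with the highest striatal sums. *Hapln1* was at its highest in Control rat 10 (52.4 CPM) and CIE rat 4 (40.4 CPM), but CIE rat 2 (35.1 CPM) lay below Control rats 9 (38.6 CPM) and 12 (35.5 CPM). *Adamts5* was at its lowest in Control rat 10 (2.17 CPM), and the next lowest was CIE rat 1 (3.45 CPM), whose striatal sum was 490 CPM, ahead of CIE rats 2 (3.67 CPM) and 4 (3.93 CPM). Of the lecticans, *Bcan* was also at its highest in Control rat 10 (414 CPM), while CIE rats 2 (366.5 CPM) and 4 (354 CPM) lay within the range of the others. *Ncan* had 165 CPM in Control rat 10, 161 CPM in CIE rat 4 and 159 CPM in CIE rat 2, below only Control rat 9 (175 CPM). Because the 3 rats high in striatal markers stand apart, no correlation with the striatal sum is given. Over the other 9 rats *Hapln1* and *Hapln4* had r = −0.657 and *Hapln1* and *Adamts5* r = −0.637. These values were still centered on the group means of all 12 rats. In the edgeR fit with scores of cortical and striatal markers as covariates *Hapln4* had a log2 fold change of 0.30 (nominal p 0.00214, FDR 0.185), *Hapln1* −0.34 (nominal p 0.00773, FDR 0.297) and *Ncan* −0.20 (nominal p 0.0362, FDR 0.482), none at 5% FDR, where 9.43% of all genes had a nominal p under 0.05. The part of neighboring tissue in the net gene levels was not tested beyond these values.

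**Figure D4:**
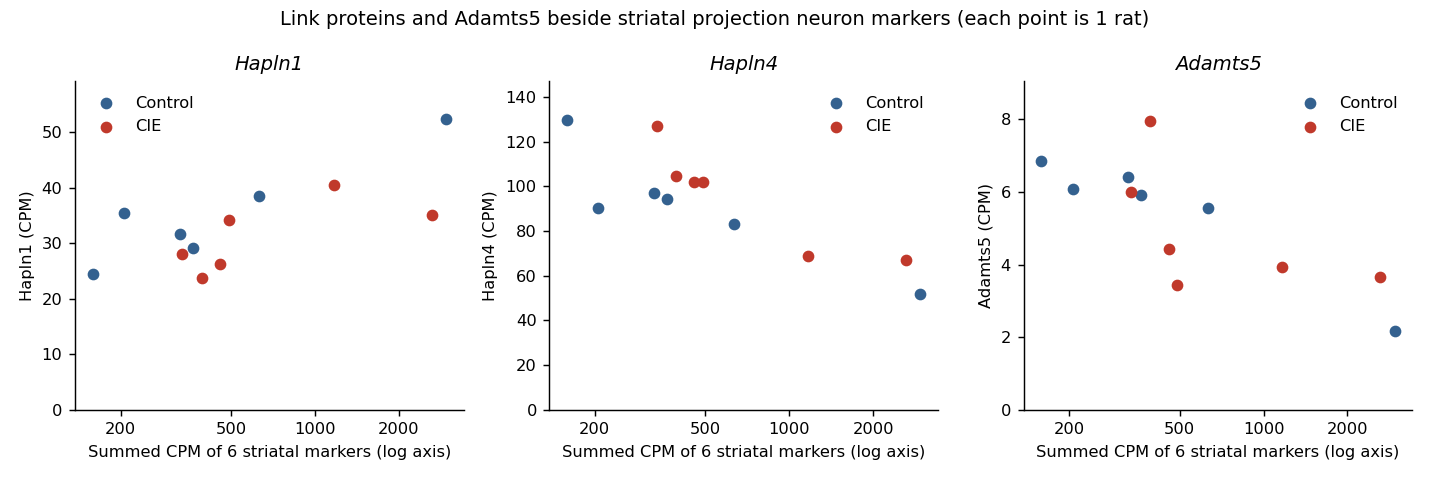
CPM of *Hapln1*, *Hapln4* and *Adamts5* (vertical axes from 0) against the summed CPM of 6 striatal projection neuron markers (log axis), each point 1 rat. The 3 rats at 1167 CPM or more on the horizontal axis hold the 3 lowest *Hapln4* values.

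In RefSeq each lectican gene lies beside a link protein gene with 0 protein-coding genes between, *Vcan* beside *Hapln1* and *Bcan* beside *Hapln2* on chromosome 2, *Acan* beside *Hapln3* on chromosome 1 and *Ncan* beside *Hapln4* on chromosome 16. None of the 3 neighboring pairs among the 10 net genes had a correlation across rats that passed the adjusted threshold. *Bcan* and *Hapln2* had r = 0.398 (permutation p = 0.226), *Vcan* and *Hapln1* r = −0.41 (permutation p = 0.17), and *Ncan* and *Hapln4* r = −0.667 (permutation p = 0.0287, adjusted 0.161).

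The genes most like each net gene across the 12 rats, by correlation of log2 CPM after removal of group means, are given as a description. *Adamts4* was near to *Fa2h* (r = 0.982) and *Ugt8* (0.98), which both encode enzymes of myelin lipid synthesis. *Hapln2* was nearest to *Map3k11* (0.993), *Prima1* (0.977) and *Myo1d* (0.968). Their log2 fold changes of −0.08, −0.14 and −0.16 (FDR 0.888, 0.931 and 0.848) also lay above the median of the myelin markers (−0.56). A value above that median was thus not particular to *Hapln2* among the genes that vary with it. *Vcan* was nearest to *Cspg4* (0.953), the NG2 proteoglycan of oligodendrocyte precursors, and *Hapln1* to *Nrd1* (0.976), *Cap2* (0.975) and *Egr4* (0.974). The nearest gene of *Hapln4* was *Pvrl1* (0.953), of *Adamts5* *Ltbp3* (0.971) and of *Tnr* *Mycbp2* (0.937), and the lowest of these nearest values was for *Acan* (*Uckl1*, 0.905). *Bcan* and *Ncan* were nearest to LOC102551932 (0.919) and *Prex1* (0.92).

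Other genes that build, modify or read the net were taken from lists. Of 13 other matrix proteins of nets and nodes, 1 was lower and 1 higher at a nominal p under 0.05, and 0 passed 5% FDR by edgeR. *Nfasc*, a cell adhesion protein of nodes and paranodes, had a log2 fold change of −0.34 (FDR 0.517), *Nrcam*, another nodal adhesion protein, 0.16 (FDR 0.593) and *Bgn* (biglycan) −0.24 (FDR 0.638). Of 10 genes of hyaluronan synthesis and breakdown none had a nominal p under 0.05, and the hyaluronan synthase *Has1* (0.30, FDR 0.737) and the hyaluronidases *Hyal1* (−0.16, FDR 0.712) and *Hyal3* (−0.14, FDR 0.784) had the smallest p.

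Of 28 genes of chondroitin sulfate synthesis and sulfation, 3 were lower and 0 higher at a nominal p under 0.05, and 0 passed 5% FDR by edgeR. They were *Slc35b2*, which carries the sulfate donor into the Golgi (log2 fold change −0.19, FDR 0.544), *Chst3*, a chondroitin 6-sulfotransferase (−0.57, FDR 0.574), and *Papss1*, which makes the sulfate donor (−0.14, FDR 0.587). The median log2 fold change of the list was −0.05, and the summed level was 1225 to 1300 CPM in CIE rats and 1288 to 1322 CPM in Control rats. These sums overlapped, and their difference had an exact permutation p of 0.00866, unadjusted for the lists summed in this way.

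Of 21 other proteases that can cut lecticans and their inhibitors and activators, 16 were tested. *Mmp14*, a membrane metalloproteinase, did not overlap between the groups, with 3.81 to 5.18 CPM against 9.80 to 14.6 CPM and a log2 fold change of −1.49 (SE 0.11, FDR 2.6e-05). *Mmp2*, the gelatinase that *Mmp14* activates, had −0.41 (FDR 0.295) and *Adamts20* 0.35 (FDR 0.566), both with a nominal p under 0.05. The genes that failed the filter on low counts were *Mmp3*, *Mmp13*, *Timp1*, *Timp3* and *Timp4*, of which the 3 inhibitors are listed at 0 in all 12 rats. In RefSeq each of these inhibitors lies within the span of a synapsin gene, and the sources used here do not say how the counting treated reads in overlapping genes.

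Of 10 receptors of net glycans, 1 was lower and 1 higher at a nominal p under 0.05 and 0 passed 5% FDR by edgeR. The integrin *Itgb1* had −0.18 (FDR 0.484), and the Nogo receptors *Rtn4rl2* and *Rtn4r* had 1.86 (FDR 0.4996) and 0.84 (FDR 0.648). *Rtn4rl2* spanned 0.356 to 9.66 CPM in CIE rats, and markers of cortical glutamatergic neurons had log2 fold changes of like size (*Slc17a7* 2.01, *Neurod6* 2.01 and *Neurod2* 1.90, FDR 0.682, 0.684 and 0.575), whose part in the receptor values was not tested. Of 9 genes of fast-spiking, net-bearing neurons, such as *Pvalb* and *Kcnc1*, none had a nominal p under 0.05, and their log2 fold changes lay between −0.09 and 0.14, with *Erbb4* (0.14), *Lhx6* (0.11) and *Kcns3* (0.06) of the smallest p. The sums of these 9 genes were 1086 to 1291 CPM in CIE rats and 1095 to 1291 CPM in Control rats. The largest part was *Gad1*, with means of 620.6 CPM in CIE rats and 621 CPM in Control rats. *Pvalb* had only 8.44 and 9.01 CPM, so the sums say little about it. The interval of the log2 fold change was narrowest for *Gad1* (−0.17 to 0.17) and widest for *Pvalb* (−1.02 to 0.84). A change of *Pvalb* within that interval is not excluded.

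Markers of other cells that make net components were read the same way. Of 10 astrocyte markers 2 were lower and 1 higher at a nominal p under 0.05 (*Aqp4* −0.28, *Sox9* −0.16 and *Gjb6* 0.34), and their sums were 2609 to 3190 CPM in CIE rats and 2692 to 3064 CPM in Control rats. Of 8 tested markers of oligodendrocyte precursors 2 were lower (*Matn4* −0.56 and *Olig1* −0.36), with *Olig2* at −0.32 and sums of 326 to 530 CPM against 431 to 548 CPM. *Gpr17*, the one not tested, was listed at 0 in all rats. Neuron markers summed to 4813 to 5379 CPM in CIE rats and 4808 to 5395 CPM in Control rats, and 1 of 10 was lower (*Tubb3* −0.20). Of 10 microglia markers 1 was lower (*Cx3cr1* −0.28), and of 10 endothelial markers 4 were lower and 1 higher at a nominal p under 0.05, among them *Pecam1* (−0.31), *Tek* (−0.33) and *Flt1* (−0.25). None of these markers passed 5% FDR.

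**Figure D5:**
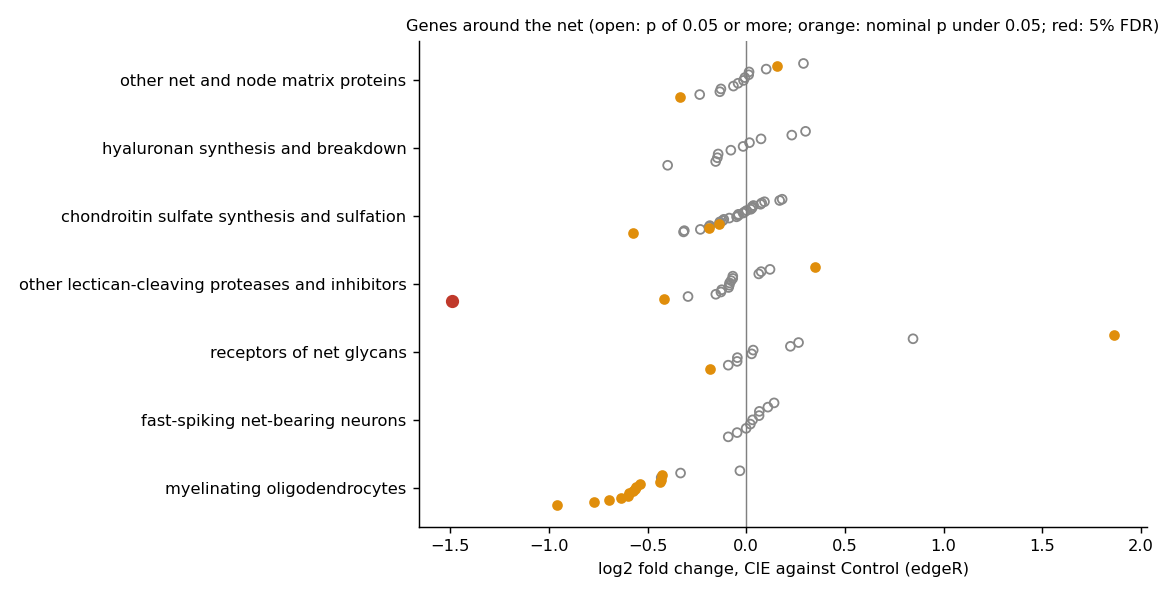
Log2 fold change of each tested gene, CIE against Control (horizontal axis, edgeR), in 6 lists of genes around the net and in the myelin list, colored by p. The single red point is *Mmp14* (−1.49), and myelin markers lie to the left of 0.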

How the data were processed

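Poly-A RNA-Seq of CeA punches gave 1 library per rat for 6 CIE and 6 Control rats, all with RIN above 8.6. Per the study's methods, the authors aligned reads (BWA, Rnor_6.0) and quantified them by gene (HTSeq). What they deposited are raw counts of 37209 genes, between 39082548 and 95647601 per rat. The gene annotation and strand setting are not given in the sources used here. The titles of Control samples also end in CIE, so groups were taken from the treatment label. That libraries of a group are separate rats comes from the study's methods. Rats were housed in groups, and cages are not given in the labels.

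The main test was edgeR 4.0.16's quasi-likelihood F test (R 4.3.3) with TMM normalization, filterByExpr and no covariates, fitted on all 20944 genes kept, with Benjamini-Hochberg FDR. The study used DESeq2 (here 1.42.0), which was run as an alternative beside limma-voom (limma 3.58.1) with quality weights, covariate fits, other filters and scalings, and leaving out each rat. CPM uses TMM library sizes, and log2 CPM a prior count of 2. Single values were compared with two-sided exact permutation tests over all divisions of the 12 rats, and correlations with 100000 permutations (scipy 1.17.1). Where rats were left out of a correlation, the group means removed were those of all 12 rats. The code was tested on simulated data. The rule for genes named takes all 10 net genes, the 3 genes of smallest p of each other list plus any at 5% FDR, and genes among the 3 most correlated with each net gene, of which 1 is not reported here. It was not applied to every list in full, and a few other genes stand as examples of a list or as the end of its range. The members and lists were chosen with earlier results of these data known. Shares scaled by transcript length were not computed, because no transcript lengths of the build were used here. RefSeq GRCr8 served for promoter sequences and gene order only.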

Additional observations from a re-analysis of the deposited data

Results flagged for a closer look

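Of 20 sets of 6 CPM values, 1 for each net gene and group, 1 held a rat far from the others. *Adamts5* was at 2.17 CPM in Control rat 10, the lowest of its group, while the other 5 Control rats lay between 5.56 and 6.86 CPM. The gap to the nearest rat was 0.721 of the group's range, above Dixon's critical value of 0.625. Chance alone gives such a value in about 1 of 20 sets. Control rat 10 also had the highest sum of striatal projection neuron markers (2963 CPM) and the lowest *Hapln4* (51.8 CPM) of all 12 rats, and the part of neighboring tissue in the *Adamts5* value was not tested.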

How the results depend on the processing

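The count of net genes with a nominal p under 0.05 (1) was 2 with the myelin covariate, 4 with the cortical and striatal covariates and 1 to 2 when 1 rat was left out (2 without CIE rat 3, by *Hapln2*). The count at 5% FDR (1) was 2 with the myelin covariate, 0 with the cortical and striatal covariates, 0 without CIE rats 2 and 4 and Control rat 10, 0 without CIE rats 1, 2 and 4 and Control rat 10, and 0 to 1 when 1 rat was left out. Genes at 5% FDR over the whole table numbered 76 by edgeR, 265 by DESeq2, 234 by limma-voom with quality weights, 39 with the myelin covariate, 34 to 154 when 1 rat was left out, and 34 and 15 in the 2 sets with several rats left out, which were added after seeing the data. Fewer rats entered those fits. The cause of the other shifts was not tested. *Adamts4* stayed lower under all settings run. It lost 5% FDR with the cortical and striatal covariates, without the 3 rats high in striatal markers (−1.02) and without 4 rats (−1.03, FDR 0.533), and in 9 of 12 fits without 1 rat.

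Signs turned for log2 fold changes that had no nominal p under 0.05 in the edgeR fit without covariates, of which *Hapln4* had one (0.30, nominal p 0.00214) with the cortical and striatal covariates. With the myelin covariate the log2 fold change was 0.012 for *Bcan*, 0.14 for *Vcan*, 0.0097 for *Tnr* and 0.031 for *Adamts5*. With the cortical and striatal covariates it was 0.16 for *Adamts5*. Without 4 rats it was 0.010 for *Bcan*, 0.0036 for *Vcan* and 0.0039 for *Adamts5*. It was −0.061 for *Hapln4* by limma-voom. When 1 rat was left out it ranged from −0.12 to 0.21 for *Acan*, from −0.12 to 0.020 for *Tnr* and from −0.049 to 0.20 for *Hapln4*. Differences in share, in percentage points, ranged when 1 rat was left out from −0.0097 to 0.196 for *Acan*, from −0.227 to 0.247 for *Vcan* and from −5.33 to 0.109 for *Hapln4*. *Tnr* relative to the myelin markers was 0.44 with the median marker (exact permutation p = 0.0606), 0.40 to 0.62 when 1 rat was left out, and 0.26 without 4 rats (exact permutation p = 0.393). Another scaling moved the share of nominal calls lower in CIE rats from 51.9% to 39.7% (library size only), while the median of all genes moved by less than 0.1 on the log2 scale.

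No paired analysis was possible because the rat numbers differ between the groups (1 to 6 and 7 to 12). At 129 to 660 counts per rat, *Adamts5* has the largest counting error of the 10 genes. Its interval includes folds of 0.602 to 1.32 (*Acan* 0.765 to 1.45, *Hapln2* 0.895 to 1.85).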
